A study of Mus musculus with 10 samples.

Results

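Farnesyl diphosphate is turned into cholesterol by a row of enzymes, and 9 genes of that row were followed here by gene symbol: Fdft1, Sqle, Lss, Cyp51, Msmo1, Nsdhl, Hsd17b7, Sc5d and Dhcr7. Each had 1 transcribed unit (TU, a stretch of the genome in which nascent RNA was detected) of its symbol among 40779 TUs, 16137 of which carried a gene symbol, and all 9 passed the filter on low counts together with 28459 TUs in all. Nascent RNA was measured by TT_chem-seq, in which newly made RNA takes up 4-thiouridine (4SU), is fragmented, captured and sequenced. The cells were E14 mouse embryonic stem cells (mESC; per the methods E14Tg2A, strain 129/Ola, with IB10 cells for the SOX2 line) of genotype SOX2-FKBP, in which the SOX2 protein carries a C-terminal degradation domain knocked into its gene. Treatment was 500 nM dTAG-13, which brings the tagged protein to a ubiquitin ligase, for 0.5, 1, 2 or 6 h (0.5, 1, 2 and 6 hpd), and untreated cells (NT) received DMSO. Every group had 2 libraries, 10 in all, was grown without serum with LIF, PD0325901 and CHIR99021, and was labelled with 2 mM 4SU for 10 min. The tagged line carries the domain in all groups, NT included, so that the NT cells are not wild type, and untagged cells given dTAG-13 were not analysed here. Per the methods, medium was refreshed ahead of treatment and cells depleted for different times were collected together. Nothing in the labels says whether the 2 libraries of a group came from separate cultures, so p-values measure the spread between these libraries, which may be technical.

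The late part of cholesterol synthesis starts when Fdft1 joins a pair of farnesyl diphosphate molecules into squalene, which commits carbon to sterols. Sqle and Lss then make lanosterol, the first sterol, and the remaining enzymes of the endoplasmic reticulum trim methyl groups off lanosterol and move or reduce its double bonds until cholesterol is left. In mammalian cells many genes of the route are transcribed under control of SREBP factors, which leave the endoplasmic reticulum when its sterol content is low and bind promoters together with NF-Y and SP1.

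Libraries held 11131490 to 25854106 fragments, and counts of the 9 genes ran from 263 (Hsd17b7, 0.5 hpd) to 4876 (Fdft1, 2 hpd) fragments. Levels are fragments scaled to a common library size with TMM factors (CPM). Fold changes come from edgeR's quasi-likelihood fit over all 10 libraries, and TUs were called where the Benjamini-Hochberg adjusted p over all tested TUs was under 0.05. The Sox2 TU ranged from 229 to 288 CPM over the 10 libraries, and as depletion acts on the protein this does not check the labels. All 10 stem cell markers were tested, with Esrrb, Zfp42 and Tfcp2l1 at 1184, 1007 and 974 CPM in NT (mean, n = 2). The 10 markers summed to 4468 and 4866 CPM in the NT libraries and to between 3813 and 4501 CPM in the depleted ones, and 1, 3, 4 and 5 of 10 were called down at 0.5, 1, 2 and 6 hpd, where 0.787%, 3.61%, 5.57% and 9.2% of all tested TUs were. Of 25 markers of endoderm, trophoblast, epiblast, neural, mesoderm, liver and stromal cells, 12 were tested, and they summed to 62.8 and 65.8 CPM in NT and 70.9 to 84.8 CPM after depletion. Of these 12, 1, 2, 4 and 2 were called up at the 4 times, where 0.527%, 2.15%, 4.26% and 6.61% of all tested TUs were, and 1, 2, 2 and 3 down. Eomes, a trophoblast and mesendoderm factor, had means of 2.42, 6.94, 7.52, 8.40 and 3.33 CPM from NT to 6 hpd and was called up at 0.5, 1 and 2 hpd but not at 6 hpd. Pou3f1, an epiblast factor, rose from 0.283 in NT to 2.65 CPM at 6 hpd, and Otx2, another, fell from 8.85 to 4.37 CPM. The stromal marker Pdgfrb had means of 10.2, 17.1, 22.5, 26.5 and 33.6 CPM from NT to 6 hpd, a large part of the sum. Between NT and 6 hpd the mesoderm marker Kdr fell from 10.4 to 6.99 CPM and the neural marker Nes from 15.0 to 7.70 CPM. Mixl1, another mesoderm marker, read 0.552 and 0.520 CPM. At 6 hpd 7 of the 12 had a log2 fold change above 0. The liver markers Alb, Afp, Ttr and Apoa1 had no tested TU. The part of these markers in the results below was not tested. In bulk samples, more cells of a type and more RNA per cell cannot be told apart, and without a spike-in all levels are relative to the other TUs.

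RefSeq promoters were found for 7 of the 9 genes, not for Fdft1 and Sqle. Of these, 3 are printed for the range they span. Lss had the largest fold change of the 9 genes and Hsd17b7 the smallest of the 7. Msmo1 held 3 NF-Y boxes in 1 orientation, and Hsd17b7 held 3 in the other. Each sequence is the 250 bases before the RefSeq start (GRCm38.p6, the coordinates of mm10), written 5′ to 3′ in the direction of the gene, with the NF-Y box CCAAT, or ATTGG where it lies on the other strand, in capitals.
Lss (chr10:76531355-76531604, plus strand): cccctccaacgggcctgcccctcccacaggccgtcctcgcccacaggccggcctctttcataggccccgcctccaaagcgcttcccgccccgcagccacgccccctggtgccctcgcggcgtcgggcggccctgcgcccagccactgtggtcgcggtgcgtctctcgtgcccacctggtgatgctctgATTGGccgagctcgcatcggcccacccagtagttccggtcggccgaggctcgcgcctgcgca
Msmo1 (chr8:64733579-64733828, minus strand): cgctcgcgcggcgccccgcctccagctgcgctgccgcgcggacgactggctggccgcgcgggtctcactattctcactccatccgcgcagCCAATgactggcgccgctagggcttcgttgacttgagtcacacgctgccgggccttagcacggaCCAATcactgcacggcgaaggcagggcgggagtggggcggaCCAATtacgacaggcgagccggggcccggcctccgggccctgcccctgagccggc
Hsd17b7 (chr1:169969206-169969455, minus strand): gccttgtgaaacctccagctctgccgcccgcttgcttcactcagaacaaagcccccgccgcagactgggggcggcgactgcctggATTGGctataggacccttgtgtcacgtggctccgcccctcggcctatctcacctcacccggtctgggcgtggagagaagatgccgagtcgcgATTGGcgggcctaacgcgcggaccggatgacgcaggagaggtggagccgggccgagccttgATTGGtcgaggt

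Motifs were searched on both strands over 250 bases before to 50 after the start. CCAAT was held by 7 of 7 promoters and by 37.4% of the 32851 RefSeq promoters, and GGGCGG, an SP1 box, by 7 of 7 and 35.7%. The boxes nearest to the start began at base -62 in Lss, -55 in Msmo1 and -12 in Hsd17b7, counted with the RefSeq start as 0. The deposited transcript of Hsd17b7 began further upstream, at chr1:169969238, so that the box at -12 lay inside that transcript. In Msmo1 the nearest SP1 box, at -62 to -57, lay just before the CCAAT at -55 to -51. The E-box CACGTG was found in Hsd17b7 and Sc5d, 2 of 7, against 7.15% of all. Of the 3 RefSeq starts of Dhcr7 the one nearest the start of its transcript was counted, and another held CACGTG at base -164. The sterol regulatory element as TCACNCCAC was found in 0 of 7 against 1.24%, its shorter form CACNCCAC, which every match of the longer one contains, in 0 of 7 against 6.24%, and ACAATGG, a SOX site, in 0 of 7 against 3.66%. These are matches of letters, not bound sites, and 0 matches says only that these letters are not in these windows.

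All 9 genes rose within 1 h of dTAG-13, stood highest after 2 h and had fallen by 6 hpd to means of 0.916 (Cyp51) to 1.31 (Nsdhl) times NT. Their summed level was 655 and 587 CPM in the 2 NT libraries, 799 and 740.4 CPM after 0.5 h, 1102 and 1112 CPM after 1 h, 1291 and 1212 CPM after 2 h, and 676 and 608 CPM after 6 h. The 1 and 2 hpd libraries lay above all NT libraries in each of the 9 genes, as they did in 22.9% of all tested TUs after 1 h and 22.7% after 2 h. At 1 hpd 9 of 9 were called up, where 2.15% of all tested TUs were, with log2 fold changes of 0.48 (Sqle) to 1.15 (Lss) and a median of 0.84 against -0.04 over all tested TUs. At 2 hpd again 9 of 9 were called up, against 4.26% of all, from 0.56 (Sqle) to 1.49 (Lss), with a median of 1.04 against -0.04. A joint test of the 4 times called 9 of 9, against 12.3% of all. Scaling by total counts instead of TMM lowered the median of all tested TUs after 2 h from -0.04 to -0.155 (log2), and the 9 genes then rose by 0.45 to 1.37, 9 of 9 called.

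**Figure D1:**
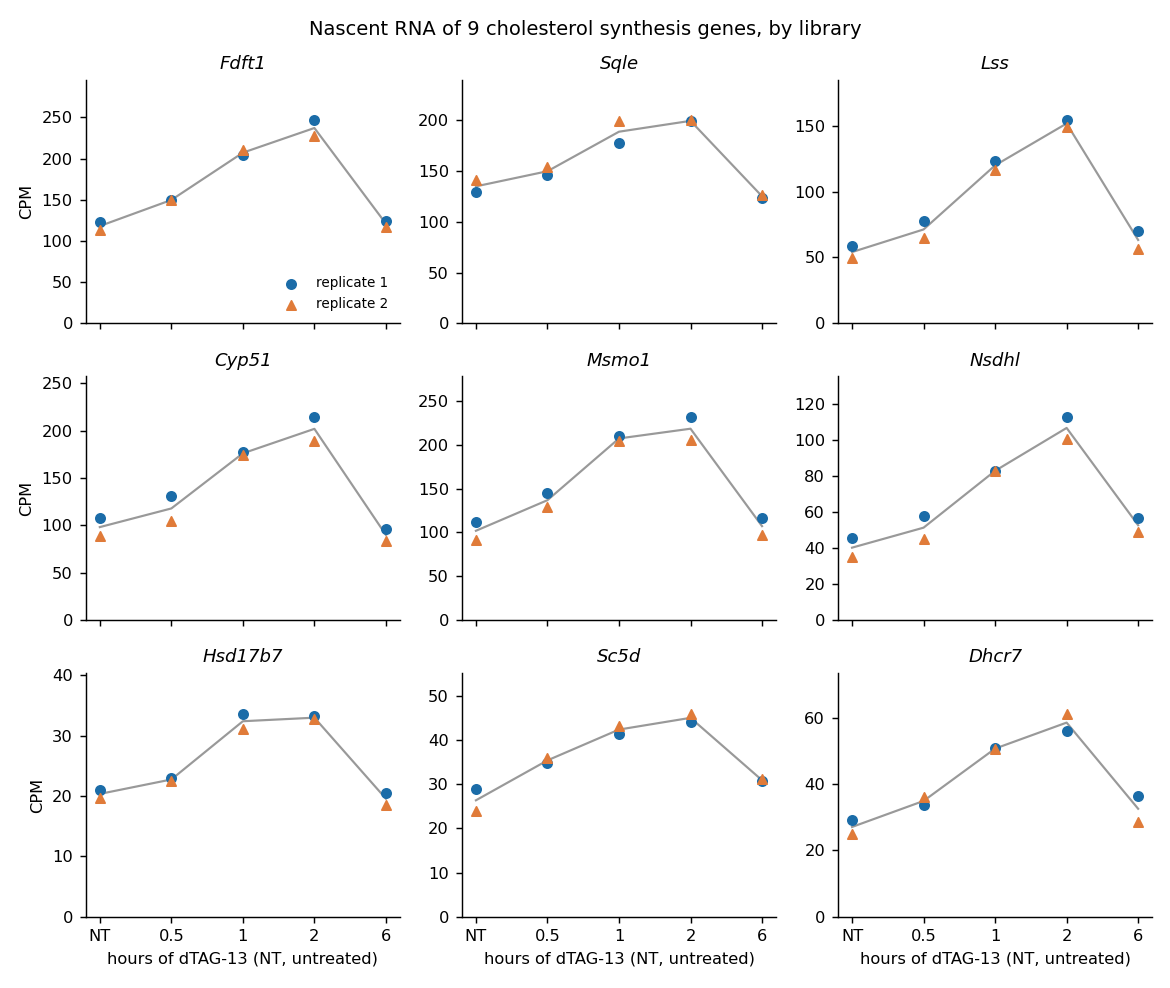
Level of each gene in every library (CPM, linear axes from 0) against hours of dTAG-13, with replicate 1 as circles, replicate 2 as triangles and the mean as a line. In all 9 panels the mean is highest at 2 hpd and falls by 6 hpd, for example in Lss from 152 to 63.3 CPM.

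Fdft1, squalene synthase, opens the branch to sterols. It stood at 123 and 113 CPM in NT, 150.0 and 149.7 after 0.5 h, 204 and 210.2 after 1 h, 247 and 228 after 2 h and 125 and 117 after 6 h. Each group up to 2 hpd lay above the one before it without overlap, and the 6 hpd libraries overlapped those of NT. The log2 fold change against NT (± SE) was 0.81 ± 0.10 after 1 h (adjusted p = 1.6e-04) and 1.01 ± 0.10 after 2 h (adjusted p = 1.2e-05). From 2 to 6 hpd Fdft1 fell by 0.97 (adjusted p = 2.5e-04), which took back 97.6% of the rise in CPM, and the log2 difference from NT after 6 h was 0.03 (95% confidence interval -0.18 to 0.25, adjusted p = 0.85). Its TU, chr14:63120130-63161650 on the minus strand of mm10, ran 26268 bp past the end of the transcript, and 79.1% of it overlapped the TU of Ctsb, a lysosomal protease, on the opposite strand. Ctsb read 56.7 and 57.0 CPM in NT and 53.0 and 54.2 after 2 h, where Fdft1 was highest.

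Sqle, squalene epoxidase, adds oxygen to squalene and is a control point of the route. It had the smallest fold change of the 9 genes. Its libraries read 129 and 141 CPM in NT, 146 and 154 after 0.5 h, 178 and 199 after 1 h, 199 and 199.7 after 2 h and 124 and 126 after 6 h. The 1 and 2 hpd libraries overlapped, and both 6 hpd libraries lay below both of NT. Sqle rose by 0.48 ± 0.10 after 1 h (log2 ± SE, adjusted p = 0.0089) and by 0.56 ± 0.10 after 2 h (adjusted p = 0.002), and the 1 hpd call was lost without NT replicate 1 (0.44, adjusted p = 0.075) and without 1 hpd replicate 2 (0.40, adjusted p = 0.17). The fall from 2 to 6 hpd was -0.67 ± 0.10 (adjusted p = 0.0044), lost without either 6 hpd library (adjusted p of 0.077 without replicate 1 and 0.052 without replicate 2). At 6 hpd the log2 difference from NT was -0.11 (95% confidence interval -0.33 to 0.11, adjusted p = 0.51). The whole TU, chr15:59314643-59345194 on the plus strand of mm10, lay inside a TU of the opposite strand named E430025E21Rik (now Washc5, a subunit of the endosomal WASH complex), which read 90.3 and 84.8 CPM in NT and 100.2 and 93.7 after 2 h (log2 0.15 ± 0.10, not called).

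Lss, lanosterol synthase, folds oxidised squalene into the ring system of sterols, and had the largest fold change of the 9. It read 58.6 and 49.6 CPM in NT, 77.8 and 64.7 after 0.5 h, 124 and 116 after 1 h, 154 and 149 after 2 h and 70.3 and 56.3 after 6 h. No group up to 2 hpd overlapped another, and replicate 2 of 6 hpd lay between the NT libraries. The log2 fold change was 1.15 ± 0.13 after 1 h (adjusted p = 8.3e-05) and 1.49 ± 0.13 after 2 h (adjusted p = 4.3e-06), 2.80 times the NT level. Lss was also the 1 gene that edgeR called between 0.5 and 1 hpd (0.75 ± 0.13, adjusted p = 0.036), where 0.0105% of all TUs were called up, but this call was lost without any 1 of the NT, 0.5 or 1 hpd libraries (adjusted p from 0.066 to 0.46). By 6 hpd it had fallen by 1.26 from 2 hpd (adjusted p = 2.5e-04), and its difference from NT was 0.22 (95% confidence interval -0.05 to 0.50, adjusted p = 0.27). The TU, chr10:76523189-76561171 on the plus strand of mm10, began 8415 bp before the transcript. The next TU upstream on the same strand, Mcm3ap, read 117 and 112 CPM in NT and 150.2 and 139 after 2 h, a log2 change of 0.33 ± 0.10 (adjusted p = 0.041), and its part in the rise of Lss was not tested.

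Cyp51, the cytochrome P450 that takes the first methyl group off lanosterol, stood at 108 and 88.5 CPM in NT, 132 and 104 after 0.5 h, 178 and 175 after 1 h, 215 and 189.6 after 2 h and 96.1 and 83.8 after 6 h. At 0.5 hpd its libraries overlapped those of NT, and at 1 and 2 hpd both lay above. Cyp51 rose by 0.84 ± 0.13 (log2 ± SE, adjusted p = 0.0011) after 1 h and by 1.04 ± 0.13 (adjusted p = 1.2e-04) after 2 h. It then fell by 1.17 from 2 to 6 hpd (adjusted p = 5.6e-04), more than it had risen, and ended at a mean below NT, though with overlapping libraries and a log2 difference of -0.13 (95% confidence interval -0.41 to 0.16, adjusted p = 0.55). Of its TU, chr5:4077840-4104892 on the minus strand of mm10, 64.0% overlapped the TU of Akap9, a scaffold protein, on the opposite strand. Akap9 read 133 and 132 CPM in NT, 168 and 137 after 2 h and 148 and 167 after 6 h and was called at none of the times against NT.

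Msmo1, the oxidase that starts removal of the next methyl groups, read 112 and 91.4 CPM in NT, 145 and 129 after 0.5 h, 210.2 and 204 after 1 h, 232 and 205 after 2 h and 117 and 97.5 after 6 h. Nearly all of its rise was in place after 1 h, 90.4% of that after 2 h, and the libraries of these times overlapped. The log2 fold change was 1.02 ± 0.13 after 1 h (adjusted p = 1.7e-04) and 1.10 ± 0.13 after 2 h (adjusted p = 5.0e-05). The fall from 2 to 6 hpd was -1.03 ± 0.13 (adjusted p = 0.0011), and the difference from NT after 6 h 0.07 (95% confidence interval -0.20 to 0.34, adjusted p = 0.74). The TU, chr8:64697973-64733578 on the minus strand of mm10, ran 20171 bp past the end of the transcript, and 43.3% of it lay inside the transcript.

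Nsdhl, the dehydrogenase that removes the oxidised methyl carbon, had the second largest fold change. Its libraries read 45.4 and 34.9 CPM in NT, 57.7 and 44.8 after 0.5 h, 82.8 and 82.7 after 1 h, 113 and 101 after 2 h and 56.5 and 48.7 after 6 h. NT and 0.5 hpd overlapped, 1 and 2 hpd were apart from all other groups and from each other, and both 6 hpd libraries still lay above both of NT. The rise was 1.04 ± 0.14 (adjusted p = 3.7e-04) after 1 h and 1.41 ± 0.14 (adjusted p = 1.5e-05) after 2 h. Nsdhl kept the largest difference from NT after 6 h, 0.39 (95% confidence interval 0.08 to 0.70, adjusted p = 0.084), not called, but called in a fit of only the libraries compared (0.37, adjusted p = 0.044), without NT replicate 1 (0.61, adjusted p = 0.033) and without 0.5 hpd replicate 2 (0.41, adjusted p = 0.041). It fell by 1.02 from 2 to 6 hpd (adjusted p = 0.0024), which lost its call without 6 hpd replicate 2 (adjusted p = 0.052). The TU, chrX:72918381-72970294 on the plus strand of mm10, is the longest of the 9 at 51.9 kb.

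Hsd17b7, the reductase that follows Nsdhl, had the lowest counts of the 9 genes. It read 21.0 and 19.7 CPM in NT, 23.0 and 22.5 after 0.5 h, 33.6 and 31.1 after 1 h, 33.2 and 32.7 after 2 h and 20.6 and 18.5 after 6 h. The 2 hpd libraries lay inside the range of the 1 hpd libraries, so that 95.3% of the rise was reached by 1 hpd. The log2 fold change was 0.67 ± 0.11 after 1 h (adjusted p = 0.002) and 0.70 ± 0.11 after 2 h (adjusted p = 9.4e-04). By 6 hpd it had fallen by 0.76 (adjusted p = 0.0041), a call lost without 6 hpd replicate 2 (adjusted p = 0.074), to a difference from NT of -0.06 (95% confidence interval -0.31 to 0.19, adjusted p = 0.77). Its TU is chr1:169945021-169969238 on the minus strand of mm10.

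Sc5d, a desaturase near the end of the route, read 28.8 and 23.8 CPM in NT, 34.8 and 35.9 after 0.5 h, 41.4 and 43.2 after 1 h, 44.0 and 45.9 after 2 h and 30.6 and 31.1 after 6 h. It was the furthest along after 0.5 h, with 48.4% of its rise, and both of its libraries then lay above NT (log2 0.42 ± 0.11, adjusted p = 0.097, not called). It rose by 0.68 ± 0.11 after 1 h (adjusted p = 0.0017) and 0.77 ± 0.11 after 2 h (adjusted p = 3.9e-04). Its fall from 2 to 6 hpd, -0.54 ± 0.11 (adjusted p = 0.034), was the smallest and least stable of the 9, and was not called under total counts (adjusted p = 0.066), without the count filter (0.055), in a fit of only the libraries compared (0.075), or without any 1 of the 1, 2 or 6 hpd libraries (0.070 to 0.25). At 6 hpd both libraries lay above NT, with a log2 difference of 0.23 (95% confidence interval -0.02 to 0.47, adjusted p = 0.19). Its TU is chr9:42240642-42264243 on the minus strand of mm10, and 42.7% of it lay inside the transcript.

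Dhcr7 encodes the reductase that makes cholesterol from dehydrocholesterol, the last step of a branch of the route. Its libraries read 29.3 and 24.9 CPM in NT, 33.8 and 36.1 after 0.5 h, 50.8 and 50.7 after 1 h, 55.9 and 61.2 after 2 h and 36.5 and 28.7 after 6 h. Groups up to 2 hpd did not overlap, and the 6 hpd libraries straddled the higher NT library. The log2 fold change was 0.90 ± 0.13 after 1 h (adjusted p = 4.9e-04) and 1.11 ± 0.13 after 2 h (adjusted p = 5.1e-05). From 2 to 6 hpd Dhcr7 fell by 0.85 (adjusted p = 0.0041), lost without 6 hpd replicate 2 (adjusted p = 0.074), and 17.4% of the rise was left, with a difference from NT of 0.26 (95% confidence interval -0.02 to 0.54, adjusted p = 0.19). The TU, chr7:143828937-143849836 on the plus strand of mm10, is the shortest of the 9 at 20.9 kb, and 86.5% of it lay inside the transcript.

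At 0.5 hpd all 9 genes had a mean above NT, by log2 0.15 (Sqle) to 0.43 (Msmo1), but edgeR called 0 of 9 up, against 0.527% of all tested TUs. DESeq2 likewise called 0, and 6 of 9 were higher at an unadjusted p under 0.05, as were 4.32% of all. In 7 of 9 genes, and in 15.6% of all TUs, both libraries lay above both NT libraries, the exceptions being Cyp51 and Nsdhl. The median change was 0.36 against -0.02 over all tested TUs. Between 0.5 and 1 hpd 9 of 9 genes had a higher mean at 1 hpd, with both 1 hpd libraries above both at 0.5 hpd (16% of all TUs) and unadjusted p-values of 3.3e-05 to 0.032 (1.81% of all TUs were higher at an unadjusted p under 0.05), and edgeR called Lss. DESeq2 called 5 of 9 at this step (Lss, Fdft1, Cyp51, Msmo1 and Nsdhl), against 0.0597% of all, and edgeR 3 (Lss, Msmo1 and Nsdhl) in a fit of only the libraries compared. The step from 1 to 2 hpd was smaller, with 0 of 9 called against 0.0211% of all, 0 by DESeq2 and 2 higher at an unadjusted p under 0.05 (Lss, 0.34 ± 0.13, and Nsdhl, 0.36 ± 0.14), as were 2.34% of all.

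**Figure D2:**
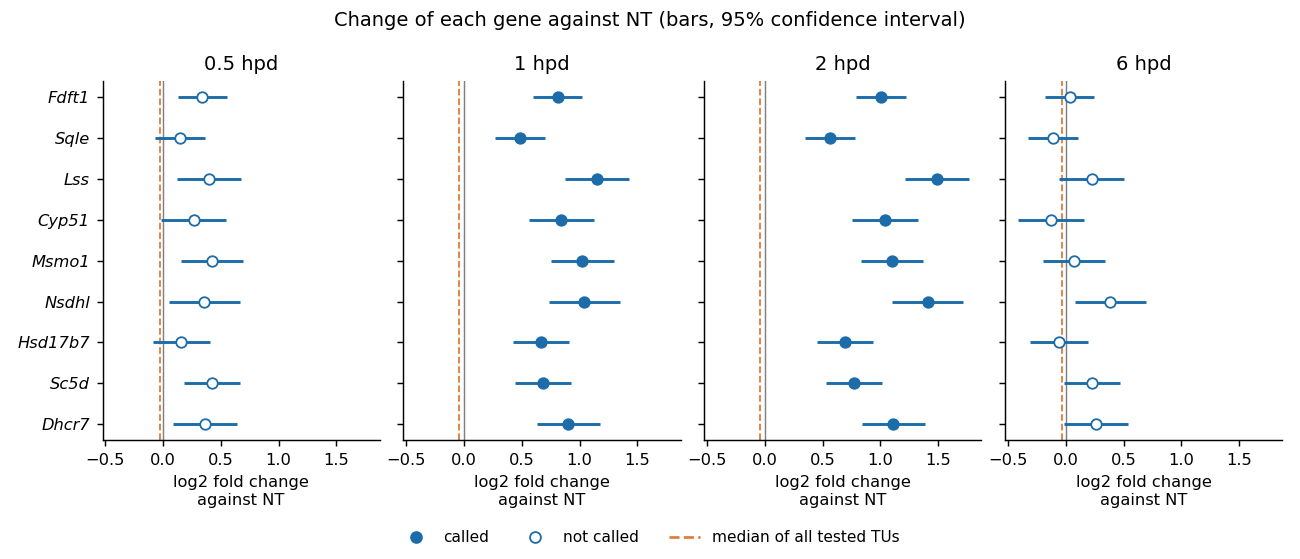
Log2 fold change of each gene against NT at each time, with bars for the 95% confidence interval, filled circles for called and open circles for not called, and a dashed line at the median of all tested TUs. All 9 genes are filled at 1 and 2 hpd and open at 0.5 and 6 hpd.

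The return was seen in every gene. From 2 to 6 hpd 9 of 9 were called down, against 0.517% of all tested TUs, by 0.54 (Sc5d) to 1.26 (Lss) on the log2 scale, and 4 of 9 (Fdft1, Lss, Cyp51 and Msmo1) without 6 hpd replicate 2. From 1 to 6 hpd 9 of 9 were called down as well, against 2.92% of all, from -0.46 (Sc5d) to -0.97 (Cyp51), with 5 of 9 without 1 hpd replicate 2 and 6 of 9 without 1 hpd replicate 1 or 6 hpd replicate 2. At 6 hpd edgeR called 0 of 9 up against NT, where 6.61% of all tested TUs were, and 0 down, where 9.2% were. DESeq2 also called 0, and only Nsdhl had an unadjusted p under 0.05 (13.6% of all TUs were higher at that p) and was called up in a fit of only the libraries compared. The confidence intervals allow a remaining log2 difference of up to 0.70 in Nsdhl and, in Cyp51, one down to -0.41, so that a full return is not shown.

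In CPM, the share of the 2 hpd rise that was lost by 6 hpd ran from 75.6% (Sc5d), 81.2% (Nsdhl) and 82.6% (Dhcr7) to 106% (Hsd17b7), 108% (Cyp51) and 115% (Sqle), with a median of 95.4%. The mean thus ended below NT in 3 of 9 genes, a count that was 5 with total counts, 5 without NT replicate 2 and 1 without NT replicate 1. In pathway order the 5 enzymes from Fdft1 to Msmo1 lost 90.6% to 115% of the rise and the 4 from Nsdhl to Dhcr7 75.6% to 106%, so that the 3 smallest shares were those of late enzymes. At 1 hpd the genes had reached from 64.2% (Nsdhl) and 67.4% (Lss) to 90.4% (Msmo1) and 95.3% (Hsd17b7) of the 2 hpd rise, and at 0.5 hpd from 16.7% (Nsdhl) to 48.4% (Sc5d), with a median of 23.1%. These shares are ratios of means of 2 libraries, with no test between genes. All 9 means were highest at 2 hpd, where those of 15.7% of all tested TUs were, and in 6 of 9 both 2 hpd libraries lay above every other library, as in 1.66% of all. In the other genes, Sqle, Msmo1 and Hsd17b7, 1 and 2 hpd overlapped, and leaving out 1 library moved the highest mean to 1 hpd (Sqle without 1 hpd replicate 1, Hsd17b7 without 1 hpd replicate 2, Msmo1 without 2 hpd replicate 1). No sample was taken between 2 and 6 h, so a later maximum in that interval would not be seen.

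**Figure D3:**
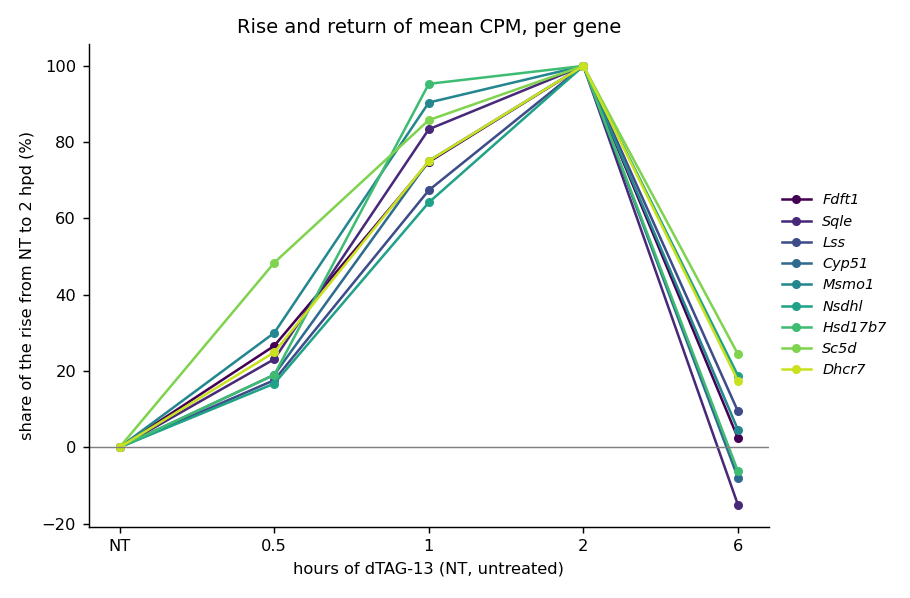
Mean level of each gene as a share of its own rise from NT (0%) to 2 hpd (100%), against hours of dTAG-13. At 6 hpd the lines end between -15.1% (Sqle) and 24.4% (Sc5d), and Sc5d stands apart at 0.5 hpd with 48.4%.

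Per kb of TU, the genes covered a wide range of levels. In NT the order of mean CPM per kb was Sqle (4.41), Cyp51 (3.63), Msmo1 (2.86), Fdft1 (2.85), Lss (1.42), Dhcr7 (1.30), Sc5d (1.12), Hsd17b7 (0.840) and Nsdhl (0.774). Libraries of the neighbours Msmo1 and Fdft1, Lss and Dhcr7, Dhcr7 and Sc5d, and Hsd17b7 and Nsdhl overlapped, so that their order is within the spread. At 2 hpd the order was Cyp51 (7.47), Sqle (6.52), Msmo1 (6.13), Fdft1 (5.71), Lss (3.99), Dhcr7 (2.80), Nsdhl (2.05), Sc5d (1.91) and Hsd17b7 (1.36). Cyp51 thus passed Sqle, with libraries apart at NT and at 2 hpd, and Nsdhl went from the last place to above Hsd17b7. At 6 hpd Sqle led again (4.09 against 3.33 for Cyp51, libraries apart). Lengths are those of the TUs, and 36.7% (Fdft1) to 88.8% (Cyp51) of a TU lay inside the annotated transcript, so that levels per kb of gene body may differ from these.

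**Figure D4:**
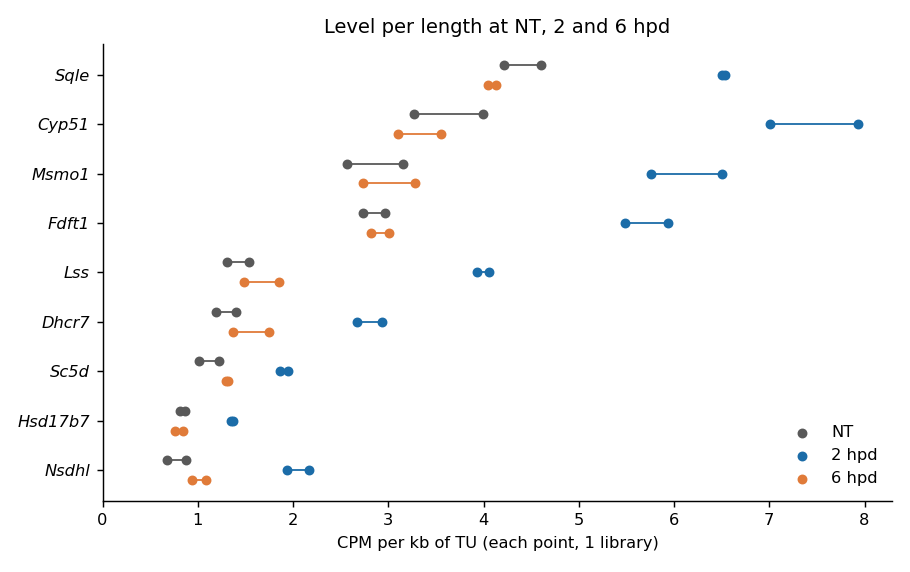
Level per kb of TU in each library at NT, 2 and 6 hpd, with lines joining the 2 libraries of a group and genes ordered by their NT mean. In every gene both 2 hpd points lie to the right of the NT and 6 hpd points, and those of Cyp51 reach beyond Sqle.

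Among 11929 other TUs with a symbol and a mean of at least 50 fragments, the pattern most like the mean of the 9 genes over the 10 libraries (Pearson's r of log2 CPM) was that of Aacs (0.992), followed by Hmgcs1 (0.988), Insig1 (0.985), Neil2 (0.980) and Idi1 (0.979). Aacs, acetoacetyl-CoA synthetase, had means of 56.9, 70.1, 107, 126 and 58.3 CPM from NT to 6 hpd, and Neil2, a DNA glycosylase, of 90.5, 125, 179.7, 181.8 and 94.0 CPM. The most alike TU of a single gene was Aacs for Fdft1 (0.988), Gm30198 for Sqle (0.958), Rdh11 for Lss (0.990) and Nsdhl (0.983), Acly for Cyp51 (0.980), Hmgcs1 for Msmo1 (0.989), Idi1 for Hsd17b7 (0.990), Dock2 for Sc5d (0.971) and Insig1 for Dhcr7 (0.993). Acly, ATP citrate lyase, supplies acetyl-CoA to lipid synthesis and ran at 402, 451, 562, 633 and 409 CPM. Between the 9 genes themselves, r over the 36 pairs was 0.834 (Sqle and Nsdhl) to 0.985 (Fdft1 and Msmo1), with a median of 0.946. The 10 points share libraries and groups, and these r describe the course over time without a test.

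The mevalonate route makes farnesyl diphosphate for Fdft1. Of 8 of its genes, 1 was called up after 0.5 h, 7 after 1 h, 7 after 2 h and 0 after 6 h (0.527%, 2.15%, 4.26% and 6.61% of all tested TUs), with median log2 changes of 0.33, 0.75, 0.90 and 0.15. The gene called after 0.5 h was Hmgcs1, HMG-CoA synthase (0.55 ± 0.13, adjusted p = 0.045), a call lost with RLE factors (adjusted p = 0.062) and without any 1 of the NT, 0.5 or 1 hpd libraries (0.057 to 0.37). Hmgcs1 read 143 and 127 CPM in NT, 382 and 342 after 2 h and 186 and 148 after 6 h, a log2 rise of 1.43 ± 0.13 after 2 h (adjusted p = 4.9e-06). Idi1, the isomerase, rose by 1.05 ± 0.10 after 2 h (adjusted p = 1.2e-05), and Fdps, farnesyl diphosphate synthase, by 1.11 ± 0.17 (adjusted p = 6.9e-04). Ggps1, which uses farnesyl diphosphate for geranylgeranyl groups and not for sterols, was not called at any time against NT (0.09 after 2 h, 95% confidence interval -0.18 to 0.36). At 1 hpd the count dropped to 3 when NT replicate 2 was left out and to 4 when 1 hpd replicate 1 was.

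Of 4 further enzymes and helpers of the squalene to cholesterol route, 0 were called up after 0.5 h, 1 after 1 h, 2 after 2 h and 0 after 6 h, beside the same shares of all TUs. The gene called after 1 h was Lbr, a sterol reductase of the nuclear envelope (0.49 ± 0.12, adjusted p = 0.019), a call lost without any 1 of the NT or 1 hpd libraries (adjusted p of 0.066 to 0.18). At 2 hpd Lbr rose by 0.53 ± 0.12 (adjusted p = 0.0088), and 0610007P14Rik (now Erg28, a scaffold of the demethylation enzymes) by 0.46 ± 0.12 (adjusted p = 0.023), both calls lost without NT replicate 2 and without 2 hpd replicate 1 (adjusted p of 0.099 and 0.074 for Lbr, 0.21 and 0.15 for 0610007P14Rik). Tm7sf2, the sterol reductase that overlaps Lbr in function, was not called (0.40 ± 0.15, adjusted p = 0.11). Ebp, the sterol isomerase, read 19.9 and 22.5 CPM in NT, 19.3 and 21.0 after 2 h and 13.77 and 13.045 after 6 h, and was called down after 6 h (-0.66 ± 0.14, adjusted p = 0.006), where 9.2% of all tested TUs were, a call lost without NT replicate 2 (adjusted p = 0.082) and without 6 hpd replicate 2 (0.061).

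Among genes of sterol sensing and uptake, 8 of 9 were tested, and 0, 3, 3 and 1 were called up at 0.5, 1, 2 and 6 hpd, against the shares of all TUs given for the mevalonate route, and 1 of 8 is near the 6.61% of all TUs after 6 h. The 3 after 2 h were Srebf2, which encodes the SREBP factor of cholesterol genes (0.68 ± 0.10, adjusted p = 3.8e-04), Insig1, the sterol sensor that retains SREBP (1.05 ± 0.12, adjusted p = 3.5e-05), and Stard4, a sterol carrier (0.71 ± 0.11, adjusted p = 8.4e-04). The count of 3 after 1 h became 1 (Insig1) when NT replicate 2 or 1 hpd replicate 1 was left out and 2 when 1 hpd replicate 2 was. Srebf2 (279 and 254 CPM in NT, 339 and 331 after 6 h) was called up after 6 h, by 0.33 ± 0.10 (adjusted p = 0.036), a call lost without NT replicate 2 and without any 1 of the 1 or 6 hpd libraries (adjusted p of 0.072 to 0.21), while the count after 6 h ran from 0 to 3 over the libraries left out. Npc1, which exports cholesterol from lysosomes, was called down after 2 h (-0.34 ± 0.10, adjusted p = 0.044), where 5.57% of all tested TUs were. It lost the call with DESeq2 (adjusted p = 0.11) and with RLE factors (0.089). The call was also lost without the count filter (0.076) and in a fit of only the libraries compared (0.19). So it was without any 1 library except those of 0.5 hpd (log2 -0.25 to -0.43).

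Genes of sterol efflux and of the liver X receptor, which acts when sterols are plentiful, were tested for 6 of 8. In the fit over all libraries edgeR called none up at any time, with 0, 0, 0 and 1 at an unadjusted p under 0.05 at 0.5, 1, 2 and 6 hpd. Apoe, a lipid carrier, was called up after 6 h by DESeq2 (adjusted p = 0.048) and by edgeR with RLE factors (0.038), without the count filter (0.044) and in a fit of only the libraries compared (0.025). At 1 hpd Abca1, a cholesterol exporter, and Mylip, a ubiquitin ligase, were called down (-0.43 ± 0.11 and -0.45 ± 0.12, adjusted p = 0.035 and 0.032), where 3.61% of all TUs were. Both calls were lost without any 1 of the NT or 1 hpd libraries (log2 -0.34 to -0.51). Without the count filter both were lost too (adjusted p = 0.052 for Abca1 and 0.062 for Mylip). That of Mylip was also lost with DESeq2 (0.057) and without 6 hpd replicate 1, and that of Abca1 with RLE factors (0.058). For 2 hpd, Abca1 read 184 and 196 CPM in NT against 125 and 131, a fall of 0.56 ± 0.11 (adjusted p = 0.0048), and Abcg1, another exporter, 59.8 and 60.4 against 35.8 and 43.1 (-0.61 ± 0.14, adjusted p = 0.01). These 2 of 6 genes called down after 2 h stand beside 5.57% of all TUs. Without NT replicate 2 both lost their call (adjusted p of 0.060 and 0.078), and Abcg1 also without 2 hpd replicate 1 (0.10). At 1 hpd Abcg1 was not called in the fit over all libraries. It was called down there with total counts (-0.57, adjusted p = 0.031) and in a fit of only the libraries compared (-0.46, adjusted p = 0.0053). The medians of the list were -0.08, -0.44, -0.33 and -0.04 from 0.5 to 6 hpd.

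**Figure D5:**
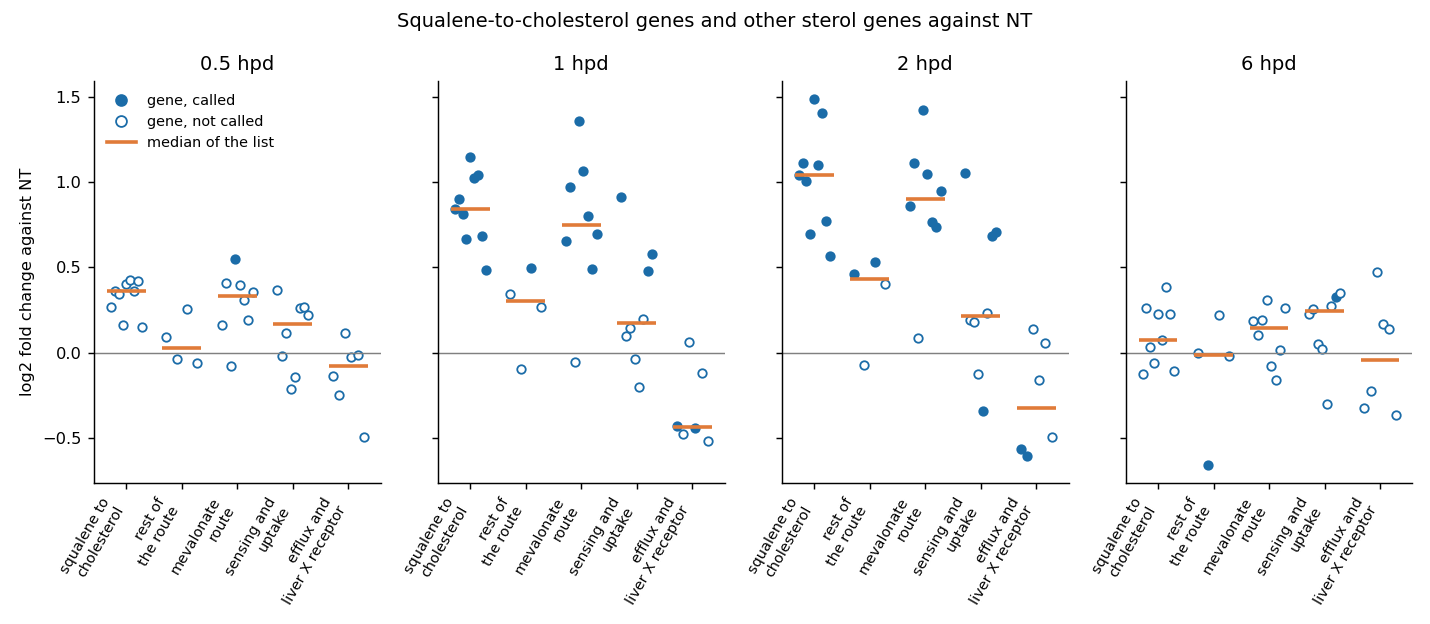
Log2 fold change against NT at each time for the 9 squalene-to-cholesterol genes and 4 other lists of sterol genes, 1 point per tested gene, filled where called, with a bar at the median of the list. The medians of the synthesis lists lie above 0 at 1 and 2 hpd, efflux and liver X receptor genes have medians of -0.44 and -0.33 there, and at 6 hpd all list medians lie between -0.04 and 0.24.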

How the data were processed

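TT_chem-seq libraries of SOX2-FKBP mESC (5 groups of 2) were analysed from the raw fragment counts per TU that the authors deposited, which carry no normalization. Per the study's methods, reads were aligned to mm10 with BWA 0.7.17-r1188, filtered with SAMtools 1.10, deduplicated with Picard 2.12.0 and split by strand, and TUs were defined from the pooled data of each strand and associated with RefSeq genes. The authors also deposited where each TU lies on mm10 (start and end in base pairs). Transcript starts in that table are 1 bp below those of RefSeq, so TU starts are probably 1 bp low. Counting by strand keeps overlapping genes of opposite strands apart as far as the libraries hold their strand.

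A TU entered the tests where 2 or more libraries held over 10 fragments (28459 of 40779, the rest holding 0.316% of fragments). All 10 libraries were fitted together in edgeR 4.0.16 (R 4.3.3), scaled by TMM, with a term for each group and no covariate, and tested with the quasi-likelihood F-test and Benjamini-Hochberg adjustment over all tested TUs. The fitted coefficient of variation between libraries came to 10.0%. SEs are the size of a log2 fold change divided by the square root of its F, and log2 CPM used a prior count of 2. Libraries of a group differed by more than counting error (chi-square over its degrees of freedom, 3.09 to 11.0), so none was the same library deposited again; this does not tell technical from biological replicates. Alternatives were DESeq2 1.42.0, other scalings, filters and sets of libraries, the replicate number as a block, and each library left out, where a lone library is assumed to vary like the other groups.

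The 9 genes and the lists of other sterol genes and markers were chosen with earlier results of these data known, so that their direction is not independent evidence. Any gene of a list that was called could be named, with the 5 TUs most like the mean of the 9 genes and the 1 most like each. Overlapping and neighbouring TUs (Ctsb, E430025E21Rik, Akap9 and Mcm3ap) were added for their position. Older symbols were matched through RefSeq synonyms. Among listed genes, Srebf1, Soat1 and Ch25h had no tested TU of that symbol and were not analysed here. Some further genes of these routes are not reported here, and no count, median or plotted point of a list holds them.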

Additional observations from a re-analysis of the deposited data

Results flagged for a closer look

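The changes against NT differed between some of the times by a test of the difference itself (edgeR, adjusted p under 0.05). The level of 9 of the 9 genes was lower at 6 than at 2 hpd, against 0.517% of all tested TUs. It was lower at 6 than at 1 hpd in 9 of the 9 genes, against 2.92% of all. Some of these calls were lost when single 1, 2 or 6 hpd libraries were left out. Between 0.5 and 1 hpd 1 gene (Lss) differed, where 0.0105% of all were called up. That call was lost when single NT, 0.5 or 1 hpd libraries were left out. From 1 to 2 hpd 0 of 9 were called up, against 0.0211% of all.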

How the results depend on the processing

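All 9 genes were called up at 2 hpd, and in the joint test, under every alternative run, and at 1 hpd under all but 2, which left out NT replicate 1 or 1 hpd replicate 2 and lost Sqle. No called change turned its direction. For the 9 genes, the count called up at 0.5 hpd was 0, but 4 with the replicate block. At 6 hpd it was 0, but 1 (Nsdhl) in a fit of only the libraries compared and with the replicate block, and 0 to 1 with single libraries left out. Between 0.5 and 1 hpd it was 1, but 5 with DESeq2, 3 with only the libraries compared, 7 with the replicate block and 0 to 4 with single libraries left out. Leaving out single libraries gave 4 to 9 called down from 2 to 6 hpd and 5 to 9 from 1 to 6 hpd. Fits without a library also have fewer degrees of freedom, and the cause of these changes of count was not tested. The replicate numbers name libraries only, and there are only 2 numbers, so the replicate block is given here only as an alternative. Among NT, 0.5, 1 and 2 hpd, deviations from the group means of same-numbered libraries correlated at 0.375 to 0.663. Between 6 hpd and these groups they correlated at 0.054 to 0.298. What same-numbered libraries share was not tested. Over all tested TUs the block raised the count called up from 150 to 524 at 0.5 hpd, 611 to 1441 at 1 hpd, 1213 to 2713 at 2 hpd, 1880 to 3394 at 6 hpd and 3 to 57 between 0.5 and 1 hpd, and the count called down from 147 to 590 between 2 and 6 hpd and 831 to 1708 between 1 and 6 hpd. With DESeq2 696 TUs were called up and 690 down at 1 hpd, against 611 and 1026 by edgeR, and 1336 and 1056 at 2 hpd, against 1213 and 1585. With total counts these were 835 and 2066 at 2 hpd, and with only the libraries compared 1832 and 1280 at 1 hpd. Without NT replicate 2, fewer TUs were called up and down against NT at every time. The shares of all TUs given above hold for the fit over all 10 libraries.

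In the other lists, the mevalonate count at 0.5 hpd, 1, became 0 with RLE factors, 2 with a mean of at least 50 fragments and 2 with the replicate block (0 to 1 with libraries left out), at 1 hpd 3 to 7 with libraries left out, and at 6 hpd 1 with the replicate block (0 to 1). The rest of the route had 2 at 1 hpd with only the libraries compared and with the replicate block (0 to 1 with libraries left out), and at 2 hpd 3 with the replicate block and 0 to 2 with libraries left out. Sensing and uptake had 1 at 0.5 hpd with the replicate block, 1 to 3 at 1 hpd with libraries left out, and at 6 hpd 2 with a mean of at least 50 fragments, 2 with only the libraries compared, 3 with the replicate block and 0 to 3 with libraries left out. Efflux and liver X receptor genes had 1 up at 6 hpd (Apoe) with DESeq2, RLE factors, no count filter, only the libraries compared and the replicate block, and 0 to 1 with libraries left out. Npc1 and Abca1 were called down at 6 hpd with total counts, a mean of at least 50 fragments, only the libraries compared and the replicate block. Abcg1 was called down at 1 hpd with total counts, only the libraries compared and the replicate block. Hsd17b7 had the lowest counts, 263 to 657 fragments.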
